A study of Mus musculus with 24 samples.

Results

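The aminoacyl-tRNA synthetases were followed here through brown and white adipogenesis and in fat tissue, by ribosome-protected fragments (RPF, the stretches of mRNA that ribosomes shield from digestion), by RNA, and by translational efficiency (Eff, RPF over RNA). The list held 38 genes: 20 for cytosolic synthetases or their subunits, 16 for mitochondrial ones, with symbols ending in 2, and the scaffold genes Aimp1 and Aimp2. A gene was kept where the table held a value above 0 in all 24 libraries, which 5035 genes of the table did. Of the 38 listed genes 24 were kept: all 20 cytosolic genes, 3 of the 16 mitochondrial genes (Cars2, Hars2 and Iars2) and Aimp1. The other 13 mitochondrial genes (Aars2, Ears2, Fars2, Lars2, Mars2, Nars2, Pars2, Rars2, Sars2, Tars2, Vars2, Wars2 and Yars2) and Aimp2 had no complete row and were not used here. A complete row rested on at least 4 reads in every library, so the 3 mitochondrial genes are those with enough reads throughout, and they do not stand for all 16.

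Aminoacyl-tRNA synthetases join each amino acid to its tRNA and so supply the ribosome with charged tRNA. The cytosol and the mitochondrion each use their own set, and the mitochondrial enzymes, coded in the nucleus and imported, serve the few proteins of the respiratory chain that mitochondria translate themselves. Gars and Kars serve both compartments from a single gene each, and Eprs, Dars, Iars, Kars, Lars, Mars, Qars and Rars assemble with the scaffold proteins into the multisynthetase complex. Many cytosolic synthetase genes are known targets of Atf4, the transcription factor of the amino acid response.

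The libraries came from C57BL/6 mice. Brown and white preadipocytes were grown from the stromal vascular fraction of interscapular BAT and of subcutaneous (inguinal) white fat of young mice. They were taken at Day 0 before induction or at Day 5. The Day 5 cells had a cocktail of insulin, dexamethasone, IBMX and rosiglitazone, then insulin alone, and on the last day medium with serum but no added insulin. Interscapular BAT and epididymal white fat (eWAT) were taken whole at 6 weeks of age, each library from tissue pooled from 3 mice by the study's methods, so that white cultures and white tissue are different depots. Each of the 6 groups had 2 RPF and 2 RNA libraries. Nothing in the labels tells if both libraries of a culture group were grown separately, and the p-values may therefore measure only a technical spread between libraries.

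Values are RPKM, read counts scaled to coding length and to the mapped reads of the library. Recovered from RPKM and coding length, the depth was between 217395 and 1765714 reads in RPF and between 3757578 and 12307820 in RNA, and the brown Day 0 RPF libraries were the shallowest. Some members were thin at Day 0. Cars2 rested on 4 to 7 RPF reads in each Day 0 library and Hars2 on 5 to 23. Their RPF and Eff at Day 0 thus carry a large counting error. Other members were thin in the brown Day 0 RPF libraries. Aimp1 had 10 and 8 reads there, Farsa 10 and 10 and Iars2 11 and 16. Hars had 15 and 14, Wars 17 and 14, Mars 15 and 22, Farsb 23 and 24, Rars 26 and 25, and Dars 28 and 19. Cars2 was thin outside Day 0 too, with 17 and 7 RPF reads in white cells at Day 5 and 11 and 17 in eWAT. Each SE is pooled over all groups and may understate the error in these libraries. Summed RPF of 6 adipocyte markers was 1941 to 4633 RPKM over the 4 Day 0 libraries and 46763 to 50250 at Day 5, and 5 of the 6 rose in brown cells, where Cfd fell, and 6 in white. Summed RPF of 6 fibroblast markers of 7 listed was 10653 to 19191 RPKM at Day 0 and 1671 to 5525 at Day 5. All 6 fell in brown cells, whereas in white cells 3 fell, Dcn rose, and Pdgfra and Col3a1 were not called. In RNA the adipocyte markers had 137 to 509 RPKM at Day 0, a smaller part of their Day 5 level than in RPF. The Day 0 RPF libraries thus held 3.89 to 9.76% of the summed Day 5 adipocyte marker RPF. Fabp4 made up most of these sums, with a mean of 46000 RPKM in brown cells at Day 5 and 1336 at Day 0. Adipoq had 1621 and 222 there and Cfd 330 and 486, so the markers give no common share. Mean Cfd RNA was 408 RPKM in brown cells at Day 5 and 57.1 at Day 0, so Cfd was lower at Day 5 in RPF only. The calls that change when the summed share of the Day 5 signal is subtracted from Day 0 are given with the lineage comparison. In eWAT the leukocyte gene Lyz2, the only complete marker of 11 listed, had 1431 and 1874 RPKM of RPF against 682 and 693 in BAT. None of the 6 brown adipocyte markers and none of the 6 endothelial markers listed had a complete row, so the brown identity of the cells could not be checked here. Fewer cells of a type and less RNA per cell cannot be told apart in these bulk libraries, and the part of these markers in the synthetase results was not tested.

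The cytosolic synthetases as a class took a smaller share of the RPF of all 5035 genes at Day 5 than at Day 0, while the 3 mitochondrial genes took a larger share. The 20 cytosolic genes together held 0.328% and 0.311% of all RPF RPKM in brown preadipocytes and 0.211% and 0.206% at Day 5. Their summed RPF went from 2223 and 2134 to 1878 and 1834 RPKM. The sum over all genes went from 678223 and 685621 to 889250 and 889026 RPKM, which also lowers the share. The abundant Nars and Aars fell from means of 505 and 229 to 234 and 129 RPKM, whereas 5 cytosolic genes were called higher. In white cells the share went from 0.373% and 0.372% to 0.174% and 0.178%. BAT (0.108% and 0.110%) and eWAT (0.110% and 0.109%) lay lowest, with overlapping libraries. The 3 mitochondrial genes held 0.00608% and 0.00858% of RPF in brown preadipocytes, 0.0187% and 0.0175% at Day 5, 0.0182% and 0.0197% in BAT, and 0.00877% and 0.0107% in eWAT. Within the cytosolic class the asparagine enzyme Nars had the highest RPF level in brown preadipocytes, with 506 and 504 RPKM, and the alpha subunit of the phenylalanine enzyme, Farsa, the lowest, with 27.0 and 30.1. The class median of Eff at Day 0 was 1.03 (brown) and 1.07 (white). It was 1.36 and 1.13 at Day 5, 1.04 in BAT and 0.896 in eWAT, beside medians over all genes of 0.923, 1.03, 0.901, 0.976, 0.862 and 0.856.

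**Figure D1:**
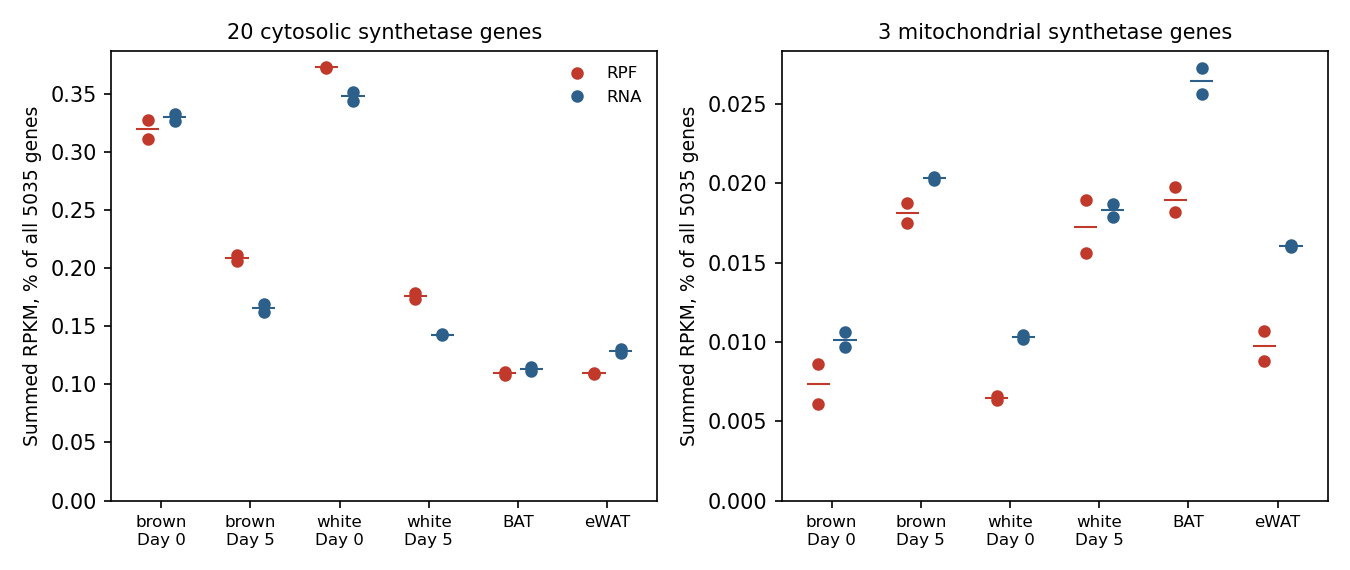
Summed RPKM of the 20 cytosolic (left) and 3 mitochondrial (right) synthetase genes as a percentage of the summed RPKM of all 5035 genes, for each library (points) with the mean of 2 libraries (line), RPF in red and RNA in blue. The cytosolic RPF share lies between 0.311% and 0.373% at Day 0 and between 0.108% and 0.110% in tissue, whereas the mitochondrial share is higher at Day 5 and in BAT than at Day 0 and in eWAT.

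To show what the promoters of these genes hold, the letters TGATGNAA, the core of the amino acid response element that Atf4 binds with C/EBP partners, were searched on both strands in the 250 bases before each RefSeq start (GRCm38.p6). Of the cytosolic members 12 had a promoter in the table, and 3 of these (25.0%), Aars, Gars and Tars, held a match. The promoters of Cars2 and Iars2 and both promoters of Aimp1 held no match, which says only that these letters are not in this window, and the other 9 members had no promoter in the table. Over all 32851 promoters 3.45% held a match, and over the 3770 complete genes with a promoter 2.31% did. A match describes the letters and is not evidence of binding. The 3 windows are printed 5′ to 3′ on the strand of the gene, with the match in capitals, where it reads as the reverse complement TTNCATCA, at chr8:111033714-111033753 (plus strand) for the alanine gene Aars, chr6:55037955-55037994 (plus strand) for the glycine gene Gars and chr15:11399659-11399689 (minus strand) for the threonine gene Tars.
Aars: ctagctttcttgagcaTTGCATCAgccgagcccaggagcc
Gars: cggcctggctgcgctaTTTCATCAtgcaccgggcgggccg
Tars: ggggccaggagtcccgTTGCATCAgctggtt
The matches ended 104, 22 and 7 bases before the start in the promoter entry of Aars, Gars and Tars, in this order. For Aars this start lies inside the RefSeq gene span (chr8:111027778-111055569) and not at its outer end.

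Library values are given for the highest and lowest member of each class, and for some others (Gars, Wars, Nars, Rars and Aimp1 among them) chosen after their values were seen. The first question was how translation of the synthetases changed when brown preadipocytes became adipocytes. Cytosolic genes moved in opposite directions: 5 of 20 rose and 8 fell in RPF (adjusted p under 0.05, limma over all 5035 genes), whereas among all genes 26.0% rose and 34.7% fell. The cytosolic median was -0.22 on the log2 scale against -0.16 over all genes, so the class as a whole was near the background. Of the 3 mitochondrial genes 2 rose and none fell, with a median of 1.79. The scaffold gene Aimp1 rose (0.56 ± 0.21, adjusted p = 0.0358).

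Dars, the aspartate enzyme of the multisynthetase complex, had the largest rise among the cytosolic genes. Its RPF was 76.7 and 58.1 RPKM in the brown Day 0 libraries and 149.6 and 139 at Day 5, a log2 FC of 1.11 ± 0.19, adjusted p = 0.000263. The libraries did not overlap, and its RNA also rose, from 66.8 and 61.7 to 97.8 and 105 RPKM (0.66 ± 0.12, adjusted p = 0.000294). The tryptophan enzyme Wars rose from 49.1 and 45.1 to 86.7 and 92.0 RPKM in RPF (0.92 ± 0.24, adjusted p = 0.0047) and by 0.45 ± 0.10 in RNA. Gars, the glycine enzyme of cytosol and mitochondria, rose from 162 and 168 to 290.5 and 284 RPKM in RPF (0.80 ± 0.15, adjusted p = 0.000361) although its RNA was slightly lower, with 199 and 204 RPKM at Day 0 and 167 and 181 at Day 5 (-0.21 ± 0.08, adjusted p = 0.0356). The fall of Gars RNA was lost with median-of-ratios scaling, where the RNA log2 FC was -0.03, and without any 1 of 3 of the 4 RNA libraries. Farsb, the beta subunit of the phenylalanine enzyme (0.51 ± 0.20, adjusted p = 0.0387), and Eprs, which charges both glutamate and proline tRNA (0.45 ± 0.17, adjusted p = 0.0367), rose by less. These calls and that of Aimp1 were each lost with at least 1 library left out, with adjusted p up to 0.145 for Farsb, 0.279 for Eprs and 0.189 for Aimp1 over all alternatives.

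Vars, the valine enzyme, had the largest fall among the members in brown RPF. It had 84.9 and 87.4 RPKM of RPF at Day 0 and 23.0 and 23.3 at Day 5, a log2 FC of -1.89 ± 0.30, adjusted p = 0.000105, and the Day 5 libraries lay far below those of Day 0. RPF of the cysteine enzyme Cars (-1.26 ± 0.23), of Nars (-1.11 ± 0.14), of the lysine enzyme Kars (-1.05 ± 0.26) and of Aars (-0.82 ± 0.17) also fell, and these 5 calls held under every alternative and with each library left out. The glutamine enzyme Qars (-1.06 ± 0.28), the leucine enzyme Lars (-0.76 ± 0.21) and Tars (-0.61 ± 0.24) fell as well. The call of Qars was lost without Day 5 replicate b (adjusted p = 0.0603), that of Lars without Day 0 replicate a (adjusted p = 0.0593), and that of Tars without any 1 of 3 libraries and under both other scalings (adjusted p up to 0.215). The remaining 7 cytosolic genes were not called in brown RPF: the log2 FC was 0.33 for the methionine enzyme Mars, 0.12 for the tyrosine enzyme Yars, -0.08 for the serine enzyme Sars, -0.08 for the histidine enzyme Hars, -0.13 for the arginine enzyme Rars, -0.31 for the isoleucine enzyme Iars and -0.34 for Farsa.

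In brown RNA the class fell more evenly: 14 of 20 cytosolic genes fell and 2 (Dars and Wars) rose, where 44.9% of all genes fell and 29.7% rose. The cytosolic median was -0.61 against -0.20 over all genes, and -0.42 with median-of-ratios scaling, under which 11 fell and 5 rose. Calls that rose made up 39.8% of all calls in brown RNA and 50.2% under that scaling. For member counts under other scalings, here and below, the share of all genes called higher or lower is not given. Those counts are thus not set against a background. Tars had the largest fall, from 122 and 108 to 35.4 and 37.7 RPKM (-1.65 ± 0.10, adjusted p = 5.62e-09), and Nars and Aars followed at -1.49 ± 0.08 and -1.44 ± 0.08. Mars (0.05 ± 0.09), Qars (0.02 ± 0.08), Kars (-0.21 ± 0.10) and Farsb (0.25 ± 0.12) were not called. The RNA of all 3 mitochondrial genes rose.

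During white adipogenesis most cytosolic synthetases fell in RPF. Of 20 genes 14 fell, 1 (Dars) rose and 5 were not called, where 36.1% of all genes fell and 16.7% rose. The class median was -0.87 against -0.38 over all genes. Median-of-ratios scaling, which moved the median of all genes up by 0.34, left 9 falling and a class median of -0.53, and under it calls that rose made up 49.7% of all calls in place of 31.7%. Aimp1, which rose in brown cells, fell in white ones (-1.01 ± 0.21, adjusted p = 0.00147), and 2 of the 3 mitochondrial genes rose.

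Tars had the largest fall in white RPF, with 111 and 102 RPKM at Day 0 and 30.5 and 28.5 at Day 5 (-1.85 ± 0.24, adjusted p = 2.83e-05). Nars went from 537 and 572 to 159.7 and 189 RPKM (-1.67 ± 0.14, adjusted p = 3.11e-07). Neither gene's libraries overlapped between the days. The falls of Cars (-1.46 ± 0.23), Vars (-1.42 ± 0.30), Aars (-1.38 ± 0.17), Yars (-1.34 ± 0.21), Rars (-1.30 ± 0.20), Sars (-1.28 ± 0.19) and Iars (-0.99 ± 0.20) also held under every alternative and with each library left out. Those of Hars (-0.88 ± 0.22), Wars (-0.86 ± 0.24), Lars (-0.74 ± 0.21), Gars (-0.67 ± 0.15) and Eprs (-0.48 ± 0.17) were lost with median-of-ratios scaling. Dars was the exception in direction, with 70.2 and 88.7 RPKM at Day 0 and 124 and 111 at Day 5 (0.58 ± 0.19, adjusted p = 0.024). Its call was lost without white Day 0 replicate a or Day 5 replicate a (adjusted p up to 0.175). Farsa (-0.60 ± 0.24), Kars (-0.53 ± 0.26), Qars (-0.52 ± 0.28), Farsb (-0.30 ± 0.20) and Mars (-0.04 ± 0.26) were not called.

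White RNA moved the same way, with 15 of 20 cytosolic genes lower and 1 (Qars, 0.32 ± 0.08, adjusted p = 0.00342) higher. Among all genes 53.4% fell and 27.5% rose. In white RNA the class median was -1.10 against -0.37 over all genes, and with median-of-ratios scaling -0.80, where 14 fell and calls that rose made up 47.4% of all calls in place of 34.0%. The largest falls were those of Tars (-1.85 ± 0.10), Nars (-1.82 ± 0.08) and Lars (-1.74 ± 0.11). Dars (-0.14 ± 0.12), Farsb (-0.12 ± 0.12), Kars (-0.21 ± 0.10) and Mars (0.14 ± 0.09) were not called. All 3 mitochondrial genes rose.

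**Figure D2:**
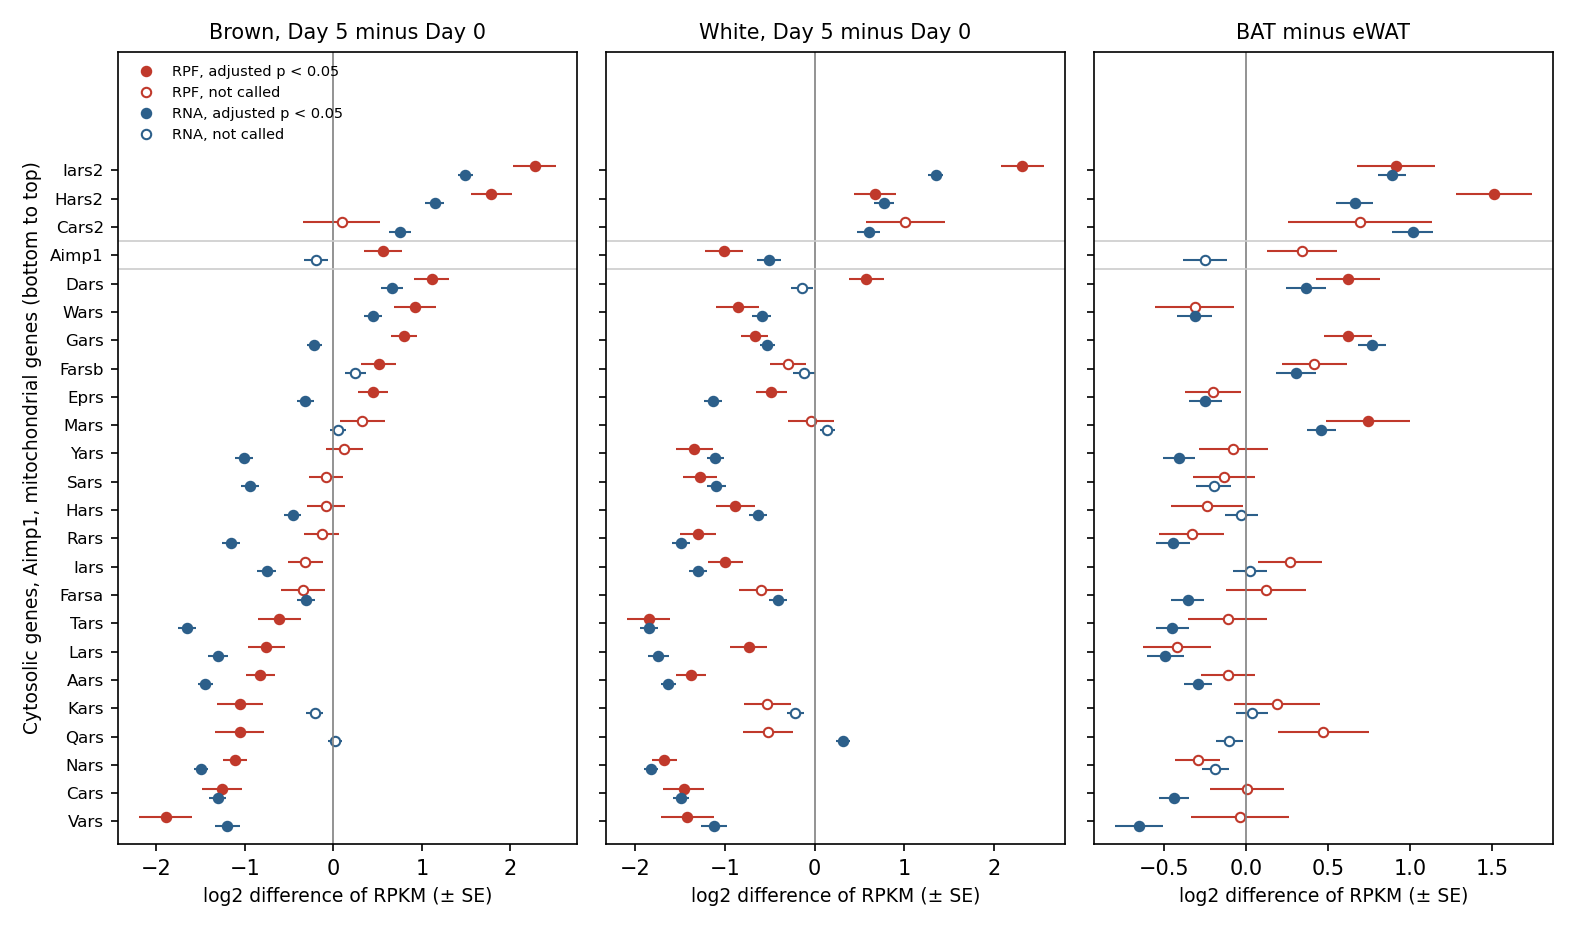
Log2 difference of RPKM with its SE for the 24 kept members (rows: cytosolic genes, Aimp1, mitochondrial genes) in brown and white cells at Day 5 against Day 0 and in BAT against eWAT, RPF in red and RNA in blue, filled where the adjusted p was under 0.05. In brown cells the RPF points of Yars, Sars, Rars and Gars lie to the right of their RNA points, whereas in white cells RPF and RNA fall side by side for these genes.

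Of the 3 mitochondrial genes 2, Iars2 and Hars2, rose in RPF in both lineages, and Iars2, the mitochondrial isoleucine enzyme, had the highest log2 FC. Iars2 RPF was 14.9 and 24.2 RPKM in brown preadipocytes and 93.8 and 90.0 at Day 5 (2.27 ± 0.24, adjusted p = 2.53e-06), and 19.5 and 16.2 RPKM in white preadipocytes and 97.3 and 80.6 at Day 5 (2.31 ± 0.24, adjusted p = 3.34e-06). The rises in the 2 lineages differed by -0.04 ± 0.34 in RPF, which was not called (adjusted p = 0.937). Its RNA rose by less, 1.49 ± 0.09 in brown and 1.35 ± 0.09 in white cells. Hars2, the mitochondrial histidine enzyme, went from 16.3 and 15.2 to 57.5 and 51.1 RPKM in brown cells (1.79 ± 0.23, adjusted p = 1.86e-05) and from 22.1 and 27.7 to 43.6 and 35.7 in white cells (0.67 ± 0.23, adjusted p = 0.0266), and the white call was lost without Day 0 replicate a or Day 5 replicate a (adjusted p up to 0.161). Cars2, the mitochondrial cysteine enzyme, was not called in RPF, with 9.95 and 19.4 RPKM at Day 0 and 15.3 and 14.4 at Day 5 in brown cells (0.09 ± 0.44). Its white libraries had 6.22 and 5.51 and then 12.8 and 10.9 RPKM (1.01 ± 0.44, adjusted p = 0.0694). Its RNA rose in brown (0.75 ± 0.12) and in white cells (0.60 ± 0.12). With the Day 5 part subtracted from Day 0 RPF the mitochondrial median was 2.02 in brown and 1.32 in white cells, in place of 1.79 and 1.01, and the white rise of Cars2 was then called.

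**Figure D3:**
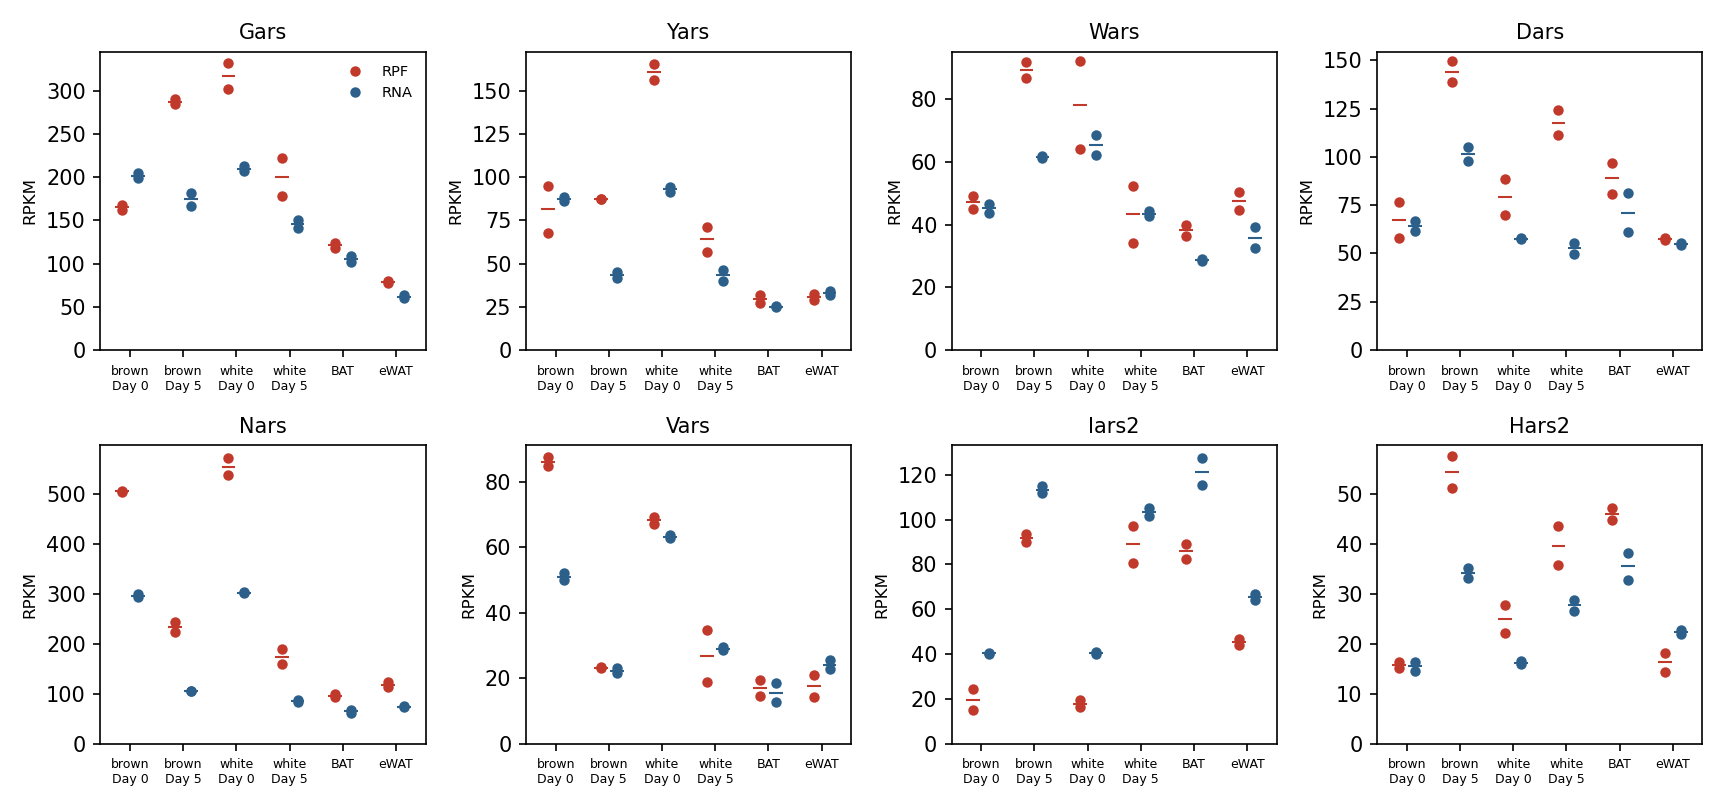
RPKM of 8 members in each library (points; line, mean of 2 libraries), RPF in red and RNA in blue, on linear axes that start at 0. Gars and Yars RPF are lower in brown than in white preadipocytes at nearly equal RNA, Dars and Wars RPF are higher at Day 5 than at Day 0 in brown cells, and Iars2 and Hars2 are low at Day 0.

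For the 3 amino acids with both a cytosolic and a mitochondrial gene kept, the mitochondrial member had the higher log2 FC of RPF in both lineages, which was not tested as a difference. Iars RPF was 81.0 ± 14.9 RPKM (SD, n = 2) in brown preadipocytes and 64.5 ± 0.0304 at Day 5, while Iars2 went from 19.6 ± 6.57 to 91.9 ± 2.69. In BAT the mitochondrial member was the higher, at 85.9 ± 4.58 RPKM against 22.6 ± 0.0723 for Iars, as it was in eWAT (45.5 ± 1.83 against 18.8 ± 1.30). Hars was not called in brown cells, with 41.3 ± 1.17 and 39.1 ± 2.87 RPKM at Day 0 and Day 5, where Hars2 went from 15.7 ± 0.816 to 54.3 ± 4.51. In white cells Hars had 64.4 ± 6.58 and then 35.1 ± 6.81 RPKM and Hars2 24.9 ± 3.98 and then 39.6 ± 5.59. Hars and Hars2 are neighbours whose starts meet on chromosome 18, where Hars reaches to base 36783205 and Hars2 begins at 36783202. The counting is not stated to use strand, so reads in this short overlap cannot be told apart. The values are over the coding sequence. Cars fell from 88.8 ± 6.86 to 37.1 ± 1.15 RPKM in brown and from 73.4 ± 11.3 to 26.5 ± 1.41 in white cells, while Cars2 had 14.7 ± 6.70, 14.8 ± 0.637, 5.86 ± 0.497 and 11.8 ± 1.35 in the same order. Cars2 and Cars had 15.3 ± 6.40 and 12.8 ± 2.34 RPKM in BAT.

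Eff separates a change in ribosome load from a change in mRNA. In brown adipogenesis Eff rose for 7 of 20 cytosolic genes and fell for 2, where 16.1% of all genes rose and 19.9% fell. The cytosolic median was 0.44 against 0.02 over all genes. The rises of Yars, Tars, Rars, Gars, Sars, Eprs and Aars all held under every alternative and with each library left out. By the test their RNA fell in brown cells while their RPF fell with a smaller log2 FC (Tars and Aars), was not called (Yars, Rars and Sars) or rose (Gars and Eprs). For Eprs neither part was stable. Its RNA fall was lost with median-of-ratios scaling and without RNA brown Day 0 replicate 2 or Day 5 replicate 1. Its RPF rise was lost with quantile normalization, with no trend and with the compared groups alone.

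Yars showed the largest rise of Eff. Its RPF was 95.0 and 67.9 RPKM in the brown Day 0 libraries and 87.4 and 87.4 at Day 5, while its RNA went from 88.4 and 86.5 to 45.3 and 41.6 RPKM. RPF thus overlapped between the days and RNA did not, and Eff went from 0.932 to 2.01 (log2 FC 1.13 ± 0.23, adjusted p = 0.00088). Eff of Tars rose by 1.04 ± 0.26 and that of Rars by 1.03 ± 0.21. Gars Eff went from 0.818 to 1.65 (1.01 ± 0.16, adjusted p = 9.1e-05), and Sars from 0.461, the lowest of the cytosolic class in brown preadipocytes, to 0.838 (0.86 ± 0.22). Eprs (0.77 ± 0.20) and Aars (0.62 ± 0.18) rose by less.

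Qars went the other way. Its brown RPF was 81.6 and 78.4 RPKM at Day 0 and 45.1 and 32.8 at Day 5, while its RNA stayed at 60.2 and 64.1 and then 63.0 and 62.9 RPKM, so that Eff fell from 1.29 to 0.619 (-1.08 ± 0.29, adjusted p = 0.00772). Kars Eff fell from 1.26 to 0.704 (-0.84 ± 0.28, adjusted p = 0.0228), a call lost without any 1 of 5 of the 8 libraries (adjusted p up to 0.0894). The other 11 cytosolic genes were not called, among them Vars, with a log2 FC of -0.70 ± 0.34. Aimp1 (0.76 ± 0.25), Iars2 (0.78 ± 0.25) and Hars2 (0.64 ± 0.25) rose, each called only with certain libraries in the fit (adjusted p up to 0.104, 0.0957 and 0.159). Cars2 was not called (-0.66 ± 0.48).

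In white adipogenesis fewer Eff changes were called: 3 of 20 cytosolic genes rose and 1 fell, where 7.94% of all genes rose and 16.3% fell. Calls that rose made up 32.7% of all calls and 52.3% with quantile normalization. The cytosolic median was -0.16 against -0.11 over all genes, and turned to 0.20 with quantile normalization. Lars rose, with 87.4 and 82.7 RPKM of RPF at Day 0 and 45.8 and 56.8 at Day 5 over RNA of 80.1 and 80.7 and then 23.98 and 24.14 (1.00 ± 0.24, adjusted p = 0.0042). Its RNA fell further than its RPF, and the call held with each library left out. Dars (0.71 ± 0.23, adjusted p = 0.0326) and Eprs (0.65 ± 0.20, adjusted p = 0.0206) rose. Qars fell, with 67.9 and 46.2 RPKM of RPF and then 49.3 and 31.1 over RNA of 62.5 and 61.3 and then 76.2 and 77.9 (-0.83 ± 0.29, adjusted p = 0.0451), and its RPF libraries overlapped. The count of 5 called members, Iars2 among them, went to 3 without RPF white Day 0 replicate a and to 2 without either RNA white Day 0 library or without RNA white Day 5 replicate 2, where the Dars, Eprs and Qars calls were lost. Iars2 rose by 0.97 ± 0.25 in Eff with each library left out, over RNA of 40.2 and 40.9 and then 105 and 102 RPKM. Hars2 (-0.10 ± 0.25), with RNA of 15.9 and 16.5 and then 28.8 and 26.5 RPKM, and Cars2 (0.41 ± 0.48) were not called.

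**Figure D4:**
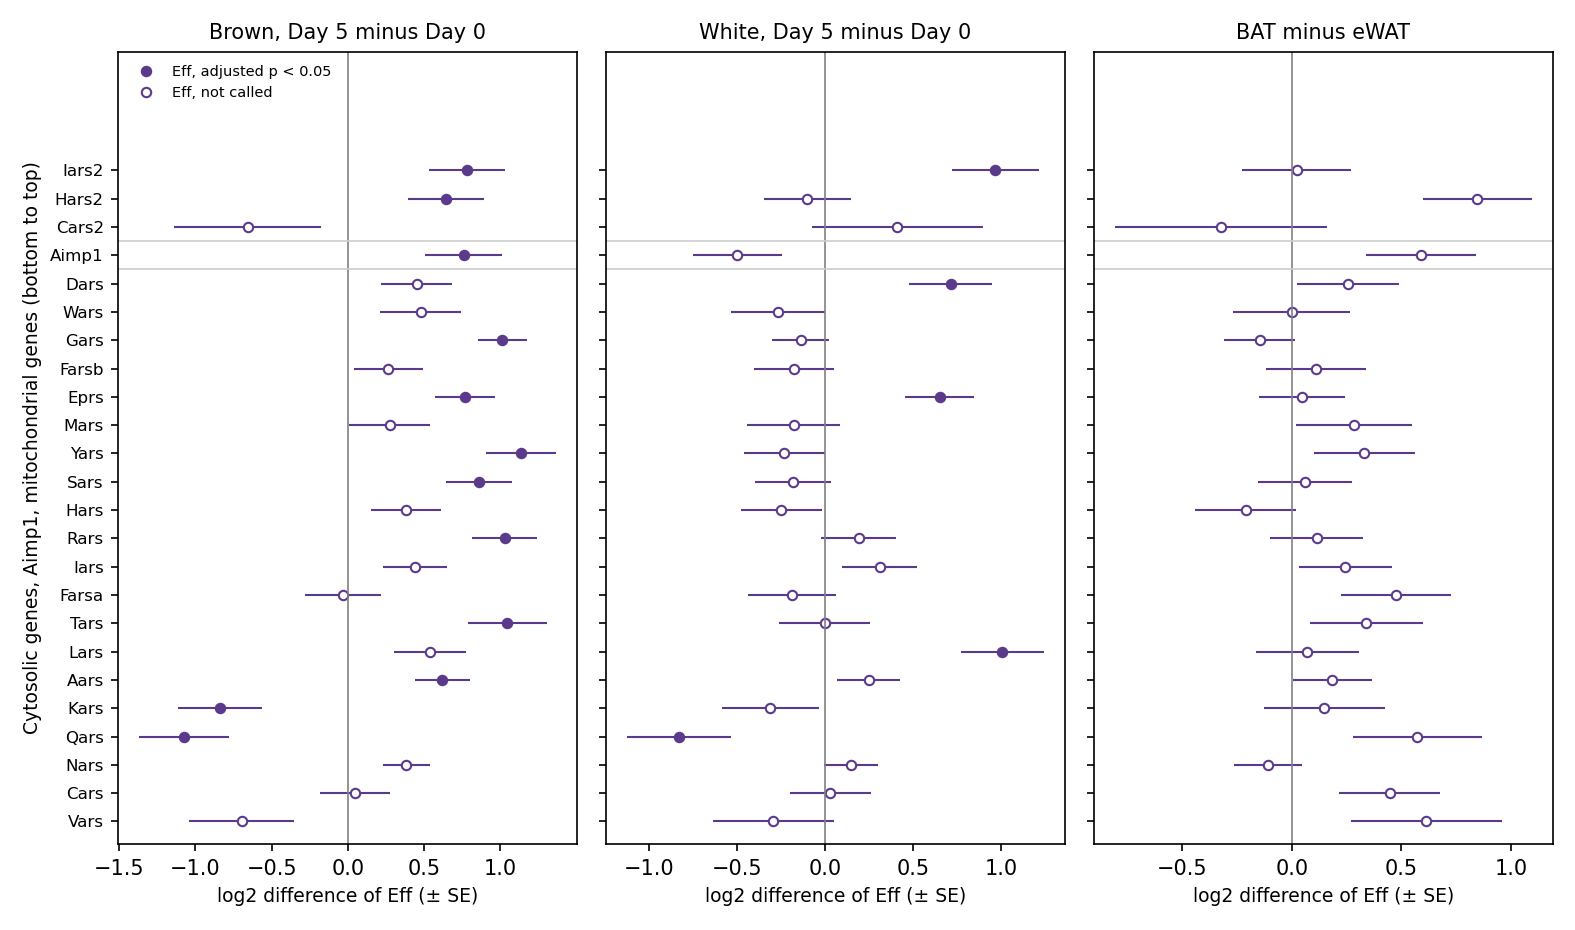
Log2 difference of Eff with its SE for the 24 kept members in brown and white cells at Day 5 against Day 0 and in BAT against eWAT, filled where the adjusted p was under 0.05. In brown cells 10 members rose and 2 fell, in white cells 4 rose and 1 fell, and in tissue none was called.

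Whether the Day 5 change differed between the lineages was tested directly, as the brown change minus the white change. This test shares its Day 0 libraries with the brown change and with the Day 0 comparison, so these results are not independent. In RPF the difference was above 0 for 9 of 20 cytosolic genes by the test and below 0 for none, where 20.0% of all genes were higher and 11.3% lower. Their median was 0.62 against 0.20 over all genes. With median-of-ratios scaling 7 were higher with a median of 0.42, and higher calls made up 49.6% of all calls in place of 63.9%. The shares of all genes called higher or lower under it are not given here. Wars (1.78 ± 0.34, adjusted p = 0.00202), Gars (1.47 ± 0.21, adjusted p = 0.00028), Yars (1.46 ± 0.30, adjusted p = 0.0029), Sars (1.20 ± 0.27, adjusted p = 0.00523) and Rars (1.17 ± 0.28, adjusted p = 0.00797) held under every alternative, as did Aimp1 (1.57 ± 0.30, adjusted p = 0.00211). Tars (1.24 ± 0.34), Eprs (0.93 ± 0.24), Farsb (0.81 ± 0.28), Nars (0.56 ± 0.19) and Hars2 (1.11 ± 0.33) were called as well, each lost under at least 1 alternative. Without RPF brown Day 5 replicate a the count of called members went from 11 to 7.

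In RNA 6 cytosolic genes had the higher brown change and none the lower, where 21.6% of all genes were higher and 13.7% lower. Higher calls made up 61.2% of all calls and 46.3% with median-of-ratios scaling. Wars (1.03 ± 0.15, adjusted p = 0.000315), Eprs (0.82 ± 0.14, adjusted p = 0.00104) and Dars (0.80 ± 0.17, adjusted p = 0.00411) held under every alternative. The call of Iars (0.55 ± 0.14) was lost without RNA white Day 0 replicate 1 or RNA brown Day 5 replicate 2, and those of Lars (0.44 ± 0.16) and Nars (0.33 ± 0.12) without any 1 of the 8 libraries.

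In Eff 3 cytosolic genes had the higher brown change and none the lower, where 9.79% of all genes were higher and 5.78% lower. Higher calls made up 62.9% of all calls and 49.4% with quantile normalization. Yars (1.37 ± 0.33, adjusted p = 0.00912) and Gars (1.15 ± 0.23, adjusted p = 0.00242) held under every alternative, whereas Sars (1.04 ± 0.31, adjusted p = 0.0262) and Aimp1 (1.26 ± 0.35, adjusted p = 0.0213) did not. The count of 4 went to 2 without RNA brown Day 0 replicate 2, RNA white Day 0 replicate 2, RNA brown Day 5 replicate 1 or RNA white Day 5 replicate 2. The Eff difference of Tars (1.05 ± 0.36, adjusted p = 0.0571) and Rars (0.84 ± 0.30, adjusted p = 0.0644) was not called. Of the mitochondrial genes limma called none in RNA or Eff.

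Before induction 9 of 24 members were called between the lineages in RPF and 1 in RNA, and the RPF calls were about as frequent as over all genes. Brown preadipocytes had lower RPF than white ones for 6 of 20 cytosolic genes and higher RPF for none, where 24.9% of all genes were lower and 12.4% higher. Higher calls made up 33.3% of all calls and 47.7% with median-of-ratios scaling, where 4 cytosolic genes were lower. Gars had 162 and 168 RPKM in brown and 332 and 302 in white preadipocytes (-0.94 ± 0.15, adjusted p = 0.000383) at nearly equal RNA, 199 and 204 against 212 and 207 RPKM. Rars had 54.1 and 58.0 against 118 and 123 RPKM (-1.10 ± 0.20, adjusted p = 0.00103), and Yars 95.0 and 67.9 against 166 and 156 (-1.004 ± 0.21, adjusted p = 0.00268). For each of these 3 genes the brown libraries lay below the white ones in RPF, and the calls held under every alternative. Sars (-0.73 ± 0.19), Wars (-0.71 ± 0.24) and Hars (-0.64 ± 0.22) were lower too, but each call was lost without certain libraries. That of Sars was also lost with quantile normalization. Those of Wars and Hars were also lost with both other scalings, with voom and with the compared groups alone. Aimp1 had 43.0 and 38.4 against 126 and 101 RPKM (-1.48 ± 0.21, adjusted p = 0.00024), on only 10 and 8 reads in the brown libraries. Cars2 was called higher and Hars2 lower in brown preadipocytes, on few reads, and both calls were lost under several alternatives. The count of 9 called members went to 5 without either white Day 0 RPF library.

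In Day 0 RNA only Wars was called among the members, with 46.7 and 43.8 RPKM in brown and 62.3 and 68.7 in white preadipocytes (-0.53 ± 0.10, adjusted p = 0.00966), and it was not called without RNA brown Day 0 replicate 1 or 2 or without RNA white Day 0 replicate 2. Of all genes 0.854% were lower and 2.90% higher, with higher calls at 77.2% of all calls and 58.8% with quantile normalization. Day 0 Eff was lower in brown cells for 5 cytosolic genes and higher for none, where 22.2% of all genes were lower and 10.9% higher. Higher calls made up 32.9% of all calls and 45.7% with median-of-ratios scaling. The lower genes were Rars (-1.02 ± 0.21, adjusted p = 0.00125), Yars (-0.91 ± 0.23, adjusted p = 0.00505), Gars (-0.89 ± 0.16, adjusted p = 0.000404), Tars (-0.68 ± 0.26) and Sars (-0.67 ± 0.22), and Aimp1 was lower too (-1.35 ± 0.25, adjusted p = 0.000473). Of these calls only those of Gars, Rars and Aimp1 held under every alternative. Those of Yars, Tars and Sars were each lost under at least 1, that of Yars with quantile normalization (adjusted p = 0.0551). Cars2 was called higher (1.28 ± 0.48), a call also lost under at least 1 alternative. The count of 7 called members went to 4 without any 1 of the RNA Day 0 libraries, and the brown and white Day 0 RPF libraries differed in depth, with 217395 and 242425 reads in brown against 388150 and 547097 in white.

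With the Day 5 part subtracted from Day 0 RPF, the calls of Tars in brown RPF, Eprs in white RPF, Qars in white Eff, Farsb and Nars in the RPF difference of the changes, Hars2 in Day 0 RPF and Tars in Day 0 Eff were lost. Of the 20 cytosolic genes 7 then had the higher brown change in RPF, in place of 9. Lower brown RPF at Day 0 was called for 6, as before, and a rise of brown Eff for 8, in place of 7. Without the subtraction these calls covered 20.0%, 24.9% and 16.1% of all genes. The shares of all genes with it are not given here, so these counts are not set against a background.

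At Day 5 fewer genes differed between the lineages in RPF than at Day 0, and more did in RNA. Brown adipocytes had higher RPF than white ones for 3 of 20 cytosolic genes, Wars (1.07 ± 0.24), Eprs (0.56 ± 0.17) and Gars (0.53 ± 0.15), and lower RPF for none, where 5.48% of all genes were higher and 8.26% lower. No member was called by limma without brown Day 5 replicate a or b, and 1 was without white Day 5 replicate a or b. Higher calls made up 39.9% of all calls and 24.9% with quantile normalization. In RNA 8 cytosolic genes were higher and 2 (Vars and Qars) lower in brown cells, where 32.0% of all genes were higher and 19.9% lower. With median-of-ratios scaling 4 were higher and 4 lower, and higher calls made up 47.3% of all calls in place of 61.7%. Dars had 97.8 and 105 RPKM of RNA in brown and 55.6 and 49.6 in white adipocytes (0.95 ± 0.12, adjusted p = 5.99e-05), and Eprs 124 and 135 against 77.3 and 71.4 (0.80 ± 0.10, adjusted p = 4.37e-05). Wars (0.50 ± 0.10, adjusted p = 0.00153) was the other call that held under every alternative. The count of 11 called members, Hars2 (0.31 ± 0.11) among them, went to 3 without RNA brown Day 5 replicate 2, to 4 without RNA white Day 5 replicate 1 and to 6 without RNA white Day 5 replicate 2. By Eff limma called no member at Day 5 (2 of 24 had an unadjusted p under 0.05, and voom called 1), where 2.24% of all genes were higher and 5.16% lower. Higher calls made up 30.3% of all calls and 43.4% with median-of-ratios scaling.

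In tissue 2 of the 3 mitochondrial genes had higher RPF in BAT than in eWAT, as had a few cytosolic genes. In RPF 3 of 20 cytosolic genes were higher in BAT and none lower, where 11.6% of all genes were higher and 28.1% lower. The cytosolic median was -0.06 against -0.31 over all genes, and turned to 0.21 with median-of-ratios scaling, under which higher calls made up 51.4% of all calls in place of 29.3%. Hars2 had 47.1 and 44.8 RPKM in BAT and 14.3 and 18.2 in eWAT (1.51 ± 0.23, adjusted p = 0.00019), and Iars2 82.6 and 89.1 against 44.2 and 46.8 (0.91 ± 0.24, adjusted p = 0.00851). Cars2 libraries overlapped, with 10.8 and 19.8 against 5.75 and 14.2 RPKM (0.69 ± 0.44, adjusted p = 0.228).

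Mars showed the largest cytosolic difference in RPF, with 35.4 and 34.5 RPKM in BAT and 23.1 and 18.9 in eWAT (0.75 ± 0.26, adjusted p = 0.0348). Gars had 118 and 124 against 77.2 and 80.1 RPKM (0.62 ± 0.15, adjusted p = 0.00432) and Dars 80.8 and 97.1 against 58.2 and 56.9 (0.62 ± 0.19, adjusted p = 0.0226). The libraries of these genes did not overlap between the tissues, but neither did those of several members that were not called. Among these, Farsb, Iars and Qars lay higher in BAT and Lars, Nars and Rars lower. The share of all genes without overlap is not given here. Gars and Hars2 were called under every alternative, Dars was lost without any 1 of 3 libraries (adjusted p up to 0.157) and Iars2 without RPF BAT replicate 2 or RPF eWAT replicate 1 (adjusted p up to 0.0575). Without either of these the count of 5 called members went to 2, and Mars was lost without any 1 of the 4 libraries (adjusted p up to 0.178). Lars was the lowest, with 25.6 and 25.9 against 33.4 and 35.5 RPKM, and was not called (-0.42 ± 0.21, adjusted p = 0.129). The log2 difference of the other 16 cytosolic genes lay between it and that of Gars, from -0.33 for Rars to 0.47 for Qars.

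In tissue RNA 4 cytosolic genes were higher in BAT (Gars, Mars, Dars and Farsb) and 10 lower, where 19.1% of all genes were higher and 50.2% lower. The lower calls turned on scaling. With median-of-ratios scaling 6 were higher and 1 lower, and with quantile normalization 7 were higher and none lower. The class median went from -0.22 to 0.04 and 0.07 under these scalings, and higher calls over all genes from 27.5% of all calls to 46.2% and 52.2%. Gars (0.77 ± 0.08, adjusted p = 3.18e-06) and Mars (0.46 ± 0.09, adjusted p = 0.000391) were higher under every alternative, and so were Cars2 (1.02 ± 0.12, adjusted p = 8.44e-06), Iars2 (0.89 ± 0.09, adjusted p = 8.69e-07) and Hars2 (0.66 ± 0.11, adjusted p = 0.00015). By Eff limma called no member in tissue (2 of 24 had an unadjusted p under 0.05, and voom called 0), where 3.12% of all genes were higher and 0.933% lower. The highest cytosolic value was that of Vars (0.61 ± 0.34). Its RPF was 19.4 and 14.6 RPKM in BAT against 14.2 and 21.1 in eWAT, and its RNA 12.7 and 18.5 against 22.7 and 25.5, so RPF overlapped between the tissues. The lowest was that of Hars (-0.21 ± 0.23), with RPF of 31.4 and 40.0 RPKM in BAT against 40.3 and 43.4 in eWAT and RNA of 48.4 and 47.5 against 46.5 and 51.4. Among the mitochondrial genes Hars2 had 0.85 ± 0.25 (adjusted p = 0.0612), with RNA of 38.2 and 32.7 RPKM in BAT against 21.9 and 22.8 in eWAT. Cars2 had -0.32 ± 0.48, with RNA of 35.1 and 38.4 against 18.8 and 17.6 RPKM. Adipocyte marker RPF summed to 36081 and 36558 RPKM in BAT and 81478 and 80306 in eWAT, and its part in the tissue differences was not tested.

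Within the cytosolic class the members of the multisynthetase complex and the free enzymes were counted apart. In white RPF 5 of the 9 complex members kept (Aimp1 among them) fell and 1 rose, with a median of -0.53, beside 36.1% of all genes falling and 16.7% rising. Of the 12 genes outside the complex 10 fell and none rose, with a median of -1.31. In brown RPF 3 complex members rose and 3 fell, and outside it 3 rose and 5 fell, where 26.0% of all genes rose and 34.7% fell, so the complex members fell about as often as all genes. The 4 cytosolic Eff calls of white cells (Lars, Dars, Eprs and Qars) were all of complex members, but only that of Lars held under every alternative. Over all genes 7.94% rose and 16.3% fell in white Eff. By catalytic class, 7 of 9 class I and 6 of 10 class II cytosolic genes fell in white RPF, with medians of -0.99 and -0.78. Whether these groups differ was not tested.

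Other genes of the pathway, from lists chosen with earlier results of these data known, moved as follows. Of 8 cytosolic partners with complete rows (of 12 listed), among them the elongation factor Eef1a1 that carries charged tRNA to the ribosome and the tRNA exporter Xpot, 5 fell in brown and 7 in white RPF and none rose, beside 34.7% and 36.1% of all genes falling. Eef1a1 had a log2 FC of -1.28 ± 0.09 in brown and -1.38 ± 0.09 in white cells, and Eef1g, an elongation factor subunit, of -1.89 ± 0.15 and -1.63 ± 0.15. All 4 complete mitochondrial partners (of 16 listed) rose in brown RPF and 3 in white, beside 26.0% and 16.7% of all genes rising. Tufm, the mitochondrial elongation factor that carries charged tRNA, rose by 2.08 ± 0.20 and 1.96 ± 0.20 and was 1.69 ± 0.20 higher in BAT than in eWAT, and Gfm1, the mitochondrial translocation factor, by 2.99 ± 0.21 and 2.08 ± 0.21.

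Of 12 complete genes of the Atf4 response (of 20 listed), 2 rose and 5 fell in brown RPF, and 1 rose and 4 fell in white RPF. Over all genes 26.0% rose and 34.7% fell in brown RPF, and 16.7% and 36.1% in white, so the falls in white were about as frequent as over all genes. In brown RPF the proline synthesis enzyme Aldh18a1 fell (-1.54 ± 0.27), while the stress gene Nupr1 (1.56 ± 0.29) and Eif4ebp1, an inhibitor of cap-dependent initiation, rose (1.31 ± 0.29). In white RPF the serine synthesis enzymes Phgdh (-1.45 ± 0.14) and Psat1 (-1.69 ± 0.19) fell, as did Aldh18a1 (-2.37 ± 0.27). The brown change was the higher for Phgdh (0.98 ± 0.20, adjusted p = 0.00255), Psat1 (1.13 ± 0.26, adjusted p = 0.00624) and Nupr1 (1.52 ± 0.41, adjusted p = 0.0139). Eff rose in brown cells for 3 of the 12, the asparagine synthetase gene Asns (0.70 ± 0.17), Psat1 (1.01 ± 0.25) and Nupr1 (1.17 ± 0.34), and fell for none, where 16.1% of all genes rose and 19.9% fell. Of 5 complete amino acid transporters (of 11 listed) 2 rose and 3 fell in brown RPF, beside 26.0% and 34.7% of all genes. Slc1a5, which takes up glutamine and other neutral amino acids, rose in brown (2.31 ± 0.12) and white cells (1.91 ± 0.12), while Slc3a2, the heavy chain of several exchangers, had a log2 FC of -1.48 ± 0.18 and -1.60 ± 0.18. Whether any of these genes bears on the synthetase changes was not tested.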

How the data were processed

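Ribosome profiling and RNA-seq were run on the same 6 groups, with 2 libraries per group and assay, 24 in all. Per the submitters' processing notes reads were handled with cutadapt 1.8.3, TopHat2 2.0.9 and Bowtie 1.0.0. By the study's methods a consensus transcriptome was assembled, the most abundant isoform of each gene was kept and reads were placed at a single site without mismatches. The genome build is not given in the sources used here. The authors deposited RPKM over the coding sequence, 1 column per library, and no read counts. Of 22418 rows 6219 held no value, 11164 held values in some libraries only and 5035 in all 24, so genes low in any group were not tested.

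Log2 RPKM without a pseudocount was fitted with limma 3.58.1 (R 4.3.3), with a variance trend and 1 model per assay over its 12 libraries. Eff was the assay by group interaction over the 24 libraries. Each SE thus rests on the spread of a gene over all groups, and p-values were adjusted by Benjamini-Hochberg over 5035 genes with a threshold of 0.05. Fold changes are log2 RPKM differences ± SE. Reads, recovered as RPKM times coding length for 4841 genes (98.6 to 98.9% of values whole within 0.05 reads), gave the depth, 217395 to 12307820 reads per library with a median of 13 to 854 per gene, and the voom alternative, and intervals or SEs cover no error beyond these libraries. Promoters came from RefSeq (GRCm38.p6) and were searched with Python 3.11.15, pandas 2.3.3 and numpy 2.4.6, and figures were drawn with matplotlib 3.10.9.

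Library values are named for the highest and lowest member of each class by log2 difference in RPF and Eff (brown and white Day 5, and tissue), group means for cytosolic and mitochondrial pairs, and list genes by smallest adjusted p, up to 3 a list and comparison. The members, lists and tests were chosen with earlier results of these data known. Alternatives were 2 other scalings, log2(RPKM + 1), a mean of at least 5 RPKM, no trend, the compared groups alone, a replicate block, voom and each library left out. Subtracting the Day 5 part of Day 0 RPF, sized by adipocyte markers, was added after seeing the data.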

Additional observations from a re-analysis of the deposited data

Results flagged for a closer look

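The Day 5 change of several members differed between brown and white cells by the limma interaction test, adjusted over 5035 genes. Values are the brown minus the white log2 change, and 2 libraries stood in each of the 4 groups. In RPF the difference was 1.78 for Wars (adjusted p = 0.00202), 1.57 for Aimp1 (0.00211), 1.47 for Gars (0.00028), 1.46 for Yars (0.0029), 1.24 for Tars (0.0154), 1.2 for Sars (0.00523), 1.17 for Rars (0.00797), 1.11 for Hars2 (0.0214), 0.93 for Eprs (0.0114), 0.81 for Farsb (0.0433) and 0.56 for Nars (0.0411). In RNA it was 1.03 for Wars (adjusted p = 0.000315), 0.82 for Eprs (0.00104), 0.8 for Dars (0.00411), 0.55 for Iars (0.0114), 0.44 for Lars (0.0496) and 0.33 for Nars (0.0424). In Eff it was 1.37 for Yars (adjusted p = 0.00912), 1.26 for Aimp1 (0.0213), 1.15 for Gars (0.00242) and 1.04 for Sars (0.0262). The difference also holds the Day 0 gap between the lineages. Mean RPF of Rars was 56.1 (brown) and 120 (white) RPKM at Day 0 and 51.2 and 49.2 at Day 5. For Aimp1 it was 40.7 and 114, then 60.2 and 56.2, whereas Wars had 47.1 and 78.1, then 89.3 and 43.4. Limma called 0 members between the lineages in Eff at Day 5.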

How the results depend on the processing

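Of 432 member results, log2(RPKM + 1) left 431 on the same side of the threshold, the 5 RPKM minimum 432, the replicate block 425, no trend 418, the compared groups alone 391, median-of-ratios scaling 382 and quantile normalization 375. With voom, which could not be fitted for all members, 382 stayed, 22 were gained and 10 lost. The labels do not pair the numbers, same-numbered libraries deviated together with r of -0.073 to 0.019 in RPF and -0.333 to 0.355 in RNA, and the block lost 6 calls and added 1. Median-of-ratios scaling moved the all-gene median by 0.14, 0.34, 0.16, -0.20 and 0.27 in RPF (brown, white, Day 0, difference of changes, tissue), 0.18, 0.30, -0.12 (Day 5), -0.12 and 0.26 in RNA, and 0.16 in Day 0 Eff.

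The number of members called was 9 at Day 0 in RPF but 5 with the compared groups alone, 3 at Day 5 in RPF but 1 (quantile), 1 (no trend) and 9 (voom), 11 for the RPF difference but 7 (quantile), and 5 in tissue RPF but 8 (quantile) and 9 (voom). In RNA it was 1 at Day 0 but 3, 6 for the difference but 12 and 17 in tissue but 11, each with the compared groups alone, and tissue RNA had 10 under either scaling. Eff at Day 5 went from 0 to 1 with voom or the compared groups alone, and Eff in tissue from 0 to 1 with no trend. In tissue RNA the sign reversed for Eprs (0.01287) with median-of-ratios, and with quantile normalization for Aars (0.00095), Cars (0.09579), Eprs (0.06767), Farsa (0.07766), Hars (0.2646) and Wars (0.06162).

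The cytosolic minus mitochondrial difference of class medians moved with quantile normalization from -2.008 to -2.348 (brown RPF), 0.663 to 0.428 (RPF difference), -1.749 to -2.035 (brown RNA), -1.875 to -2.161 (white RNA), -1.113 to -1.001 (tissue RNA), -0.569 to -0.022 (white Eff) and -0.438 to -0.166 (Day 0 Eff). Brown RNA had -1.912 with voom, -1.99 without Gars and Kars and -1.603 with Aimp1 counted as cytosolic (Aimp2 had no complete row). Subtracting the Day 5 part gave -2.113 (white RPF), -1.084 (Day 0 RPF), 1.257 (RPF difference), -1.009 (Day 0 Eff) and 1.08 (Eff difference).

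With each library left out in turn, the members called numbered 5 to 9 (Day 0 RPF), 0 to 1 (Day 5 RPF), 7 to 11 (difference RPF), 2 to 4 (tissue RPF), 0 to 1 (Day 0 RNA), 3 to 8 (Day 5 RNA), 3 to 4 (difference RNA), 2 to 4 (white Eff), 4 to 8 (Day 0 Eff), 0 to 1 (Day 5 Eff), 2 to 6 (difference Eff) and 0 to 1 (tissue Eff). The difference of class medians was -0.839 to -0.103 (Day 0 RPF), 0.384 to 1.108 (difference RPF), -1.342 to -0.76 (tissue RPF), -1.891 to -1.608 (brown RNA), -1.924 to -1.76 (white RNA), -0.096 to 0.082 (Day 0 RNA), -0.3 to 0.081 (brown Eff), -0.623 to -0.274 (white Eff), -0.76 to 0.045 (Day 0 Eff), 0.202 to 0.812 (difference Eff) and -0.129 to 0.247 (tissue Eff).

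Over all genes, calls in Day 5 RPF were 692 but 1178 with voom, in Day 0 RNA 189 but 325 (quantile), 331 (voom) and 881 (compared groups alone), and in tissue Eff 204 but 102 (compared groups alone). With 1 library left out they went from 1878 to 1224 in Day 0 RPF, 692 to between 318 and 357 in Day 5 RPF, 189 to between 83 and 102 in Day 0 RNA, 1223 to 713 or 757 in white Eff, 373 to as few as 81 in Day 5 Eff, 784 to as few as 485 in the Eff difference and 204 to as few as 111 in tissue Eff. Day 0 RPF values of Cars2 and Hars2, and brown ones of Aimp1, Farsa, Iars2, Hars, Wars, Mars, Farsb, Rars and Dars, rest on few reads. The cause of these changes was not tested.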
